A study of Mus musculus with 18 samples.

Results

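The serpins, a family of protease inhibitors, were followed in kidney cortex RNA of 5 inbred mouse strains challenged with anti-glomerular basement membrane (anti-GBM) antibody, which induces nephritis. The members were taken by name: every probe whose deposited gene symbol begins with Serpin was kept, apart from Serping1. This gave 55 genes with 68 probes, of 34509 symbols and 46643 probes in the table of B6 and NZW. In the table of BALB/C, DBA1 and 129/svj, 31 rows carried the search key of such a probe and covered 30 of the 55 genes, so that the other 25 genes were read in B6 and NZW only. All mice were 2 months old and all had received the antibody, with 3 mice per strain and 15 mice in all. B6 and BALB/C are labelled resistant to the nephritis, and DBA1, 129/svj and NZW sensitive. The labels give neither the antibody dose nor the time after the challenge, and no mouse without the challenge was measured, so that what a strain had before the antibody and what the antibody did cannot be told apart. Mouse 1 of BALB/C, DBA1 and 129/svj had a repeat array, which was averaged with its first array.

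Serpins trap their target protease by offering it an exposed loop as bait. Once the loop is cut, the serpin refolds and locks the enzyme in a dead complex. Some members have lost this activity and carry hormones or assist collagen folding instead. The clade A genes, most of which lie in clusters on mouse chromosome 12, encode mainly secreted plasma proteins, clade B holds mainly intracellular inhibitors, and clades C, D, E and F include inhibitors of thrombin and of plasmin. In the kidney these systems meet in the glomerulus, where fibrin is laid down and removed in nephritis, and in the tubule, which takes up filtered plasma proteins.

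The 2 deposited tables differ in their signal level, and strains are therefore compared within a table. Arrays of B6 and NZW had a median signal of 81.1 to 89.8, and on them 33.8% to 36.4% of the probes had a detection p of 0.05 or less. In the other table the median was 118.5 to 152, and 30.5% to 34.1% of the probes were detected. Signals below are background corrected, quantile normalized within their table and given on the log2 scale. Because each probe has its own affinity, levels were not set against those of another probe. Probes were not compared with the genomes of the strains. A strain variant under a probe and a difference in RNA therefore cannot be told apart. Kidney marker genes were read beside the tissue label. No list of medulla genes was read, so that cortex is known from the label alone. All 10 proximal tubule markers with a probe were measurable in B6 and NZW, as were 5 of 6 podocyte markers, and 7 of 7 and 2 of 5 in the other table.

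Most serpin genes gave no signal in this tissue. For 34 of the 55 genes no probe was detected in any mouse in which it was read, among them Serpinc1 (antithrombin), Serpina5 (protein C inhibitor), Serpinb2 and Serpinb9. A further 4 genes were detected in 1 mouse each and not tested: Serpina3f in 129/svj, Serpina3m and Serpinb6c in B6, and Serpind1 (heparin cofactor II) in NZW. The remaining 17 genes were tested with 22 probes in B6 and NZW, and 8 of them with 1 row each in the other table. By clade, 9 of 20 clade A genes and 4 of 26 clade B genes could be tested, together with Serpine2, Serpinf1, Serpinf2 and Serpinh1. In B6 and NZW, 13 genes were detected in all 6 mice, and 7 genes were detected in all 9 mice of the other table.

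**Figure D1:**
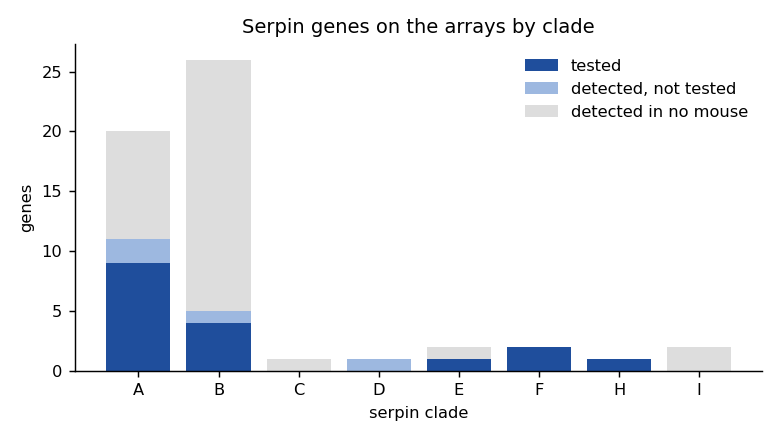
Number of serpin genes (vertical axis) in each clade (horizontal axis), divided into genes tested in at least 1 table, genes detected but in too few mice to be tested, and genes detected in no mouse. Clade B is the largest with 26 genes, of which 21 were detected in no mouse.

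The genes on chromosome 12 are of interest as a group. In the RefSeq order of this chromosome, Serpina10 and Serpina6 are followed, after Serpina16, by Serpina1f, Serpina1b, Serpina1d, Serpina1a, Serpina1c and Serpina1e, and further on by the Serpina3 genes. Serpina1a to Serpina1e are recent copies of the gene of alpha-1 antitrypsin, the plasma inhibitor of neutrophil elastase, and a probe to one copy may bind RNA of another. The probe sequences were not analysed here, so that signal cannot be assigned to a copy with certainty. Promoter sequences are shown to compare the copies with each other. Probes of Serpina1a, Serpina1b and Serpina1d were higher in B6 than in NZW (below). No NZW sequence was read, so that nothing about this difference is read from the promoters. In the other table Serpina1a and Serpina1d were called in no comparison, and Serpina1b had no row. The sequences are the 100 bases before and the 10 bases from the annotated start. They were taken from RefSeq (GRCm38.p6, a B6 genome), 5′ to 3′ on the minus strand, with the motif GTTAAT in capitals. Serpina1e, detected in no mouse, is shown for comparison.
Serpina1a, chr12:103863610-103863719: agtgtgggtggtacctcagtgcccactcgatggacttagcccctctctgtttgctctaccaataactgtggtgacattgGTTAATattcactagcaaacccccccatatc
Serpina1b, chr12:103738180-103738289: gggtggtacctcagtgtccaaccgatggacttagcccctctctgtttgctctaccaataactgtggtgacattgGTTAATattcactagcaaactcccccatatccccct
Serpina1d, chr12:103773624-103773733: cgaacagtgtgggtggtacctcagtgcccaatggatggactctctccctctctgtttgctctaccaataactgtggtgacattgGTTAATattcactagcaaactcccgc
Serpina1e, chr12:103956888-103956997: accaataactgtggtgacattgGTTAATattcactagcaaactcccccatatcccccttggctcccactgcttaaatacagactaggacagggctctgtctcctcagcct

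GTTAAT is the first part of the recognition sequence of the HNF1 factors, which are present in liver and proximal tubule. Searched on both strands, it occurred in 7.10% of all 32851 promoter windows of 300 bases. It lay 21 bases before the annotated start in Serpina1a, 26 in Serpina1b, 16 in Serpina1d and 78 in Serpina1e. Of the 13 tested serpin genes with a promoter in the table, 5 held it: Serpina1a, Serpina1b, Serpina1d, Serpina7 and Serpinb8. Aligned on the motif, with Serpina1c included, 90 bases of the promoters were 91.1% to 97.8% identical between the 10 pairs of genes. A match in these letters is a description and shows no binding.

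B6 was set against NZW to ask how a resistant and a sensitive strain differ within 1 table. Of the 22 serpin probes tested, 13 passed an adjusted p of 0.05 (limma, Benjamini-Hochberg over all 16766 tested probes), where 18.9% of all tested probes did so. Of these, 9 probes of 7 genes were higher in B6, against 9.24% of all tested probes, and 4 probes of 4 genes were lower, against 9.61%. Among the 9 higher probes, 5 are those of Serpina1a, Serpina1b and Serpina1d, copies whose probes may bind the same RNA. They may count 1 signal more than once, so that the shares are not those of separate members. The genes higher in B6 were Serpina1a, Serpina1b, Serpina1d, Serpina3n, Serpina3g, Serpine2 and Serpinb6a, and those lower were Serpina6, Serpina7, Serpinf2 and Serpinb1a. The median difference was 0.32 on the log2 scale over the serpin probes and -0.04 over all tested probes, and the median size of a difference was 0.58 and 0.20. The probes of Serpina6 and Serpina1a passed the detection filter through 1 strain alone, and a probe of this kind had to differ, so that no p is given for them. Without such probes 11 of 20 serpin probes were called, 8 higher and 3 lower, where 16.9% of 16274 probes were. With arrays scaled to the same 75th percentile in place of quantiles, the median of all tested probes shifted to -0.13, the share of called probes that were higher in B6 went from 49.0% to 37.3%, and the serpin calls became 7 higher and 4 lower. The methods' t-test kept 5 of the 13 serpin probes after adjustment, those of Serpina6, Serpine2 and Serpinf2 and the 2 Serpina1b probes with the larger differences.

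**Figure D2:**
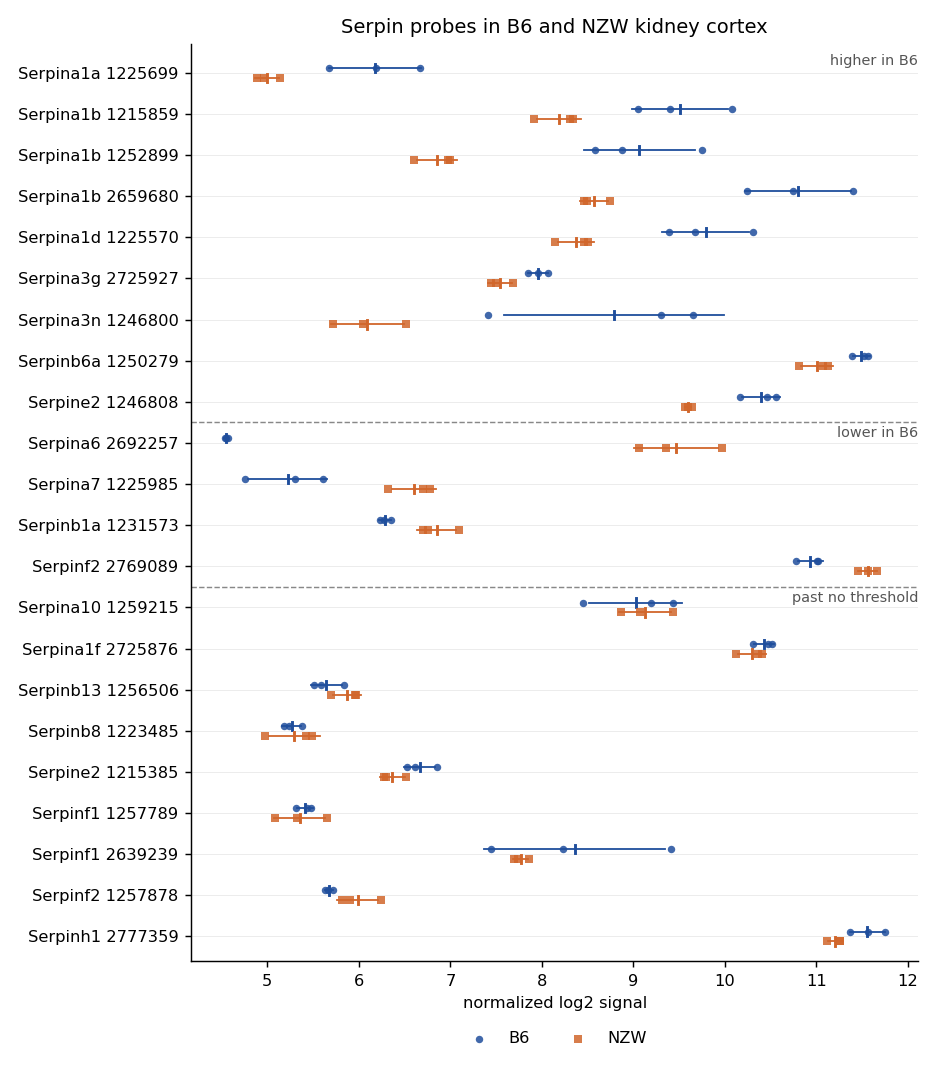
Normalized log2 signal (horizontal axis) of each tested serpin probe (rows, with the digits of its identifier) in the 3 mice of B6 (blue circles) and of NZW (orange squares), with the strain mean as a tick and 1 SD as a line. The upper block holds the 9 probes called higher in B6, the middle block the 4 called lower, where Serpina6 shows the widest gap, and the lower block the 9 probes past no threshold.

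Serpina6 encodes corticosteroid-binding globulin, the plasma carrier of glucocorticoids, which has no protease target. Its probe (ILMN_2692257) gave 4.54, 4.57 and 4.54 in the 3 B6 mice and 9.06, 9.97 and 9.36 in the 3 NZW mice. It was not detected in any B6 mouse and was detected in every NZW mouse. With the main background correction the NZW mean was at least 18.1-fold higher than B6, a bound set by comparing the NZW mean with the dimmest detected signal of each B6 array. The bound depends on that correction. Whether a strain variant lies under this probe was not tested. The fitted log2 difference of B6 minus NZW was -3.68 without background correction and -3.69 with an offset of 50.

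The alpha-1 antitrypsin copies stood the other way. The brightest of 3 Serpina1b probes (ILMN_2659680) gave 11.40, 10.74 and 10.24 in B6 and 8.49, 8.46 and 8.74 in NZW, a difference of 2.23 (SE 0.26, adjusted p = 0.00043). Its other probes were 2.21 (ILMN_1252899) and 1.33 (ILMN_1215859) higher in B6, with adjusted p of 0.00067 and 0.0064. The probes of the gene thus differed in size and not in direction. Serpina1d (ILMN_1225570) gave 10.31, 9.68 and 9.38 in B6 and 8.46, 8.50 and 8.14 in NZW, a difference of 1.42 (SE 0.22, adjusted p = 0.0026). Serpina1a (ILMN_1225699) gave 6.67, 6.19 and 5.67 in B6 and was detected in no NZW mouse, so that B6 was at least 1.81-fold higher with the main processing. Its fitted log2 difference was 0.64 to 1.18 over the alternatives run, so that the bound does not hold for each of them. For each of these 5 probes all B6 mice lay above all NZW mice, and within B6 mouse 1 was the highest and mouse 3 the lowest. Serpina1f, which lies beside them, gave 10.51, 10.31 and 10.47 in B6 and 10.41, 10.36 and 10.12 in NZW, with overlapping strains and a difference of 0.13 (95% interval -0.14 to 0.40, adjusted p = 0.50). Serpina10, an inhibitor of coagulation factor Xa with the cofactor protein Z, overlapped too, at 9.43, 9.19 and 8.45 in B6 and 9.43, 9.08 and 8.87 in NZW (difference -0.10, 95% interval -0.67 to 0.47, adjusted p = 0.82).

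Alpha-1 antitrypsin and most other clade A proteins are major liver products, and hepatocyte markers were read beside them. Alb, Fgb, Tat and Cps1 were detected in none of the 6 mice of B6 and NZW. Of the 4 hepatocyte list genes tested, Trf was 1.71-fold higher in B6 and Ttr 1.87-fold lower, with adjusted p of 0.028 and 0.0045, where 18.9% of all tested probes were called. Apoa1 and Hpx differed by -0.13 and -0.29 on the log2 scale and were not called. The summed signal of the list, led by Ttr, was 3874, 3938 and 3825 in B6 and 6639, 5996 and 4832 in NZW on the linear scale. Without Ttr it was 1351, 1551 and 1097 in B6 and 945, 1042 and 1042 in NZW, so that the order of the strains turned. As for every gene measured in whole cortex, fewer cells of a type and less RNA per cell cannot be told apart.

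Serpina3n, an acute phase inhibitor related to alpha-1 antichymotrypsin that blocks neutrophil elastase and granzyme B, gave 9.30, 9.66 and 7.42 in B6 and 6.04, 5.72 and 6.51 in NZW. It was 2.70 higher in B6 (SE 0.51, adjusted p = 0.0071), with no overlap between the strains, and mouse 3 lay well below the other B6 mice. With a trended and robust variance the call was lost, leaving out single mice moved the difference between 2.26 and 3.39, and without background correction it was 1.98. Genes of the acute phase and interleukin 6 response were read beside it. Their summed signal, led by Stat3, was 10157, 14387 and 5459 in B6 and 4540, 4648 and 4870 in NZW, and without Stat3 7322, 11587 and 3255 in B6 and 2601, 2104 and 2308 in NZW. Saa1, a serum amyloid gene, gave 8.19, 9.24 and 7.16 in B6 and was detected in no NZW mouse, so that it was tested through B6 alone and was at least 7.33-fold higher there. Of the 10 tested genes of this list 3 were called higher in B6, Saa1, Lcn2 and Lbp, and 0 lower, where 18.9% of all tested probes were called. The other 7, Stat3, Saa2, Saa3, Hp, Socs3, Il6ra and Cp, did not pass (adjusted p = 0.065 to 0.53). The part of this response in the Serpina3n difference was not tested. Serpina3g, an intracellular inhibitor of cysteine cathepsins, differed by much less, at 7.96, 8.07 and 7.85 in B6 and 7.68, 7.50 and 7.44 in NZW (difference 0.42, SE 0.12, adjusted p = 0.038). Its call was lost in 5 of the 6 fits that left out 1 mouse (adjusted p up to 0.14), all but that without NZW mouse 1, and with 75th percentile scaling and joint normalization of the tables.

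**Figure D3:**
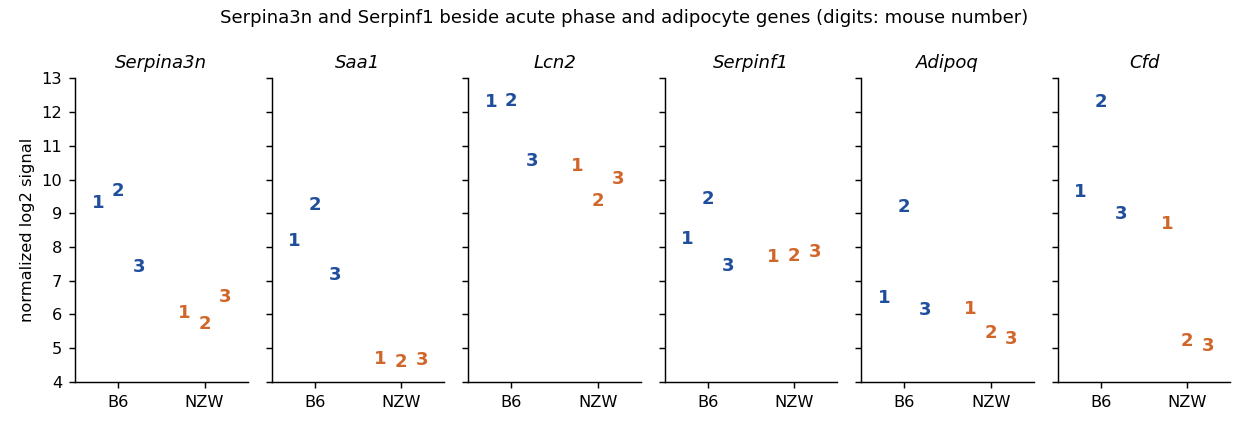
Normalized log2 signal (vertical axis) in the 3 mice of B6 (blue) and of NZW (orange), each digit being the number of a mouse, for Serpina3n beside Saa1 and Lcn2, and for Serpinf1 beside Adipoq and Cfd. In B6, mouse 3 is the lowest for Serpina3n, Saa1 and Lcn2, and mouse 2 is the highest for Serpinf1, Adipoq and Cfd.

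Serpina7 encodes thyroxine-binding globulin, another hormone carrier without protease target, and its gene is on the X chromosome. It gave 5.30, 5.60 and 4.76 in B6, where 2 of 3 mice were above background, and 6.32, 6.70 and 6.77 in NZW. It was 1.38 lower in B6 by the fitted means of 5.22 and 6.60 (SE 0.22, adjusted p = 0.0026), a size that rests on B6 signals near background and was -0.77 without background correction. Both hormone carriers were thus lower in B6 than in NZW.

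Among the inhibitors of coagulation and fibrinolysis, Serpine2 and Serpinf2 differed in opposite directions. Serpine2, or protease nexin 1, is bound to the cell surface and matrix and inhibits thrombin, urokinase and plasmin. Its brighter probe (ILMN_1246808) gave 10.56, 10.46 and 10.16 in B6 and 9.63, 9.59 and 9.56 in NZW, a difference of 0.80 (SE 0.13, adjusted p = 0.0026). Its dimmer probe (ILMN_1215385) had the same direction but missed the threshold, with a difference of 0.30 (95% interval 0.01 to 0.59, adjusted p = 0.14). Serpinf2, which encodes alpha-2 antiplasmin and is on chromosome 11, gave 11.01, 10.77 and 11.01 in B6 and 11.46, 11.66 and 11.56 in NZW with its brighter probe (ILMN_2769089). The means were 10.93 and 11.56, so that B6 fell by 0.63 below NZW (SE 0.12, adjusted p = 0.0064), and the dimmer probe (ILMN_1257878) gave -0.32 (adjusted p = 0.13).

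Serpinf1 encodes pigment epithelium-derived factor, an antiangiogenic protein that inhibits no protease and is made by fat cells among others. Its brighter probe (ILMN_2639239) gave 8.23, 9.41 and 7.45 in B6 and 7.70, 7.74 and 7.86 in NZW, with overlap and no call (difference 0.59, 95% interval -0.33 to 1.52, adjusted p = 0.36). Its dimmer probe (ILMN_1257789) differed by 0.06 (adjusted p = 0.84). The highest mouse, B6 mouse 2, was also the highest for the fat cell genes Adipoq, at 9.20, and Cfd, at 12.31. The summed signal of the adipocyte list, led by Cfd, was 1054, 5919 and 746 in B6 and 661, 218 and 226 in NZW. Of its 7 genes 3 were tested and Cfd was called higher in B6 (adjusted p = 0.035), where 18.9% of all tested probes were called. Lep, Retn, Plin1 and Fabp4 were detected in no mouse. The part of fat tissue in the Serpinf1 values was not tested.

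Of the 4 intracellular clade B inhibitors tested, 1 was called lower and 1 higher in B6, where 18.9% of all tested probes were called. Serpinb1a, an inhibitor of neutrophil elastase and cathepsin G, gave 6.35, 6.27 and 6.23 in B6 and 7.10, 6.71 and 6.76 in NZW, so that B6 fell by 0.57 below NZW (SE 0.13, adjusted p = 0.017). Serpinb6a, an inhibitor of cathepsin G, gave 11.52, 11.56 and 11.39 in B6 and 10.81, 11.13 and 11.07 in NZW (difference 0.49, SE 0.12, adjusted p = 0.025). The strains did not overlap for either gene. The call of Serpinb1a was lost without B6 mouse 2 or 3 (adjusted p up to 0.059), and that of Serpinb6a without B6 mouse 1 or 2 or NZW mouse 1 (adjusted p up to 0.098) and with 75th percentile scaling. Serpinb13, an inhibitor of cathepsins K and L, and Serpinb8, an inhibitor of furin, lay within 0.23 of NZW near background. Neutrophils, in which Serpinb1a is abundant, were read through 6 tested markers, of which 0 passed in limma (0 at an unadjusted p below 0.05), with summed signals, led by S100a8, of 1289, 5942 and 4597 in B6 and 2200, 2763 and 2804 in NZW.

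Serpinh1, also called HSP47, is a chaperone of collagen in the endoplasmic reticulum and not an inhibitor. It gave 11.36, 11.75 and 11.56 in B6 and 11.11, 11.26 and 11.25 in NZW. The mice did not overlap, but the difference of 0.35 missed the threshold (95% interval 0.06 to 0.64, adjusted p = 0.092). Among 16 tested collagen clients and folding partners 3 were higher in B6, namely Col1a1 (2.81-fold), the hydroxylase subunit P4ha2 (1.62-fold) and the lysyl hydroxylase Plod2 (3.11-fold), and 0 were lower. This is 18.8% of the list, close to the 18.9% of all tested probes.

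Proteases that serpins inhibit, and other proteins of these systems, were read from lists. The called share was 29.2% of the target proteases and 27.8% of the protease inhibitors of other families, beside 18.9% of all tested probes. It was 23.5% of the receptors and cofactors and 20.0% of the fibrinogen and contact system genes. The target proteases include Masp2 and the inhibitors Slpi, whose probes passed the detection filter through 1 strain alone, which favours a call. The shares of these lists without such probes were not computed, so that nothing is read from their gap to 18.9%. Of 24 tested target proteases 5 were higher in B6, the kidney kallikreins Klk1, Klk1b5, Klk1b24 and Klk1b26 by 2.04-fold to 3.10-fold and the epithelial protease St14 by 3.15-fold. The complement lectin pathway protease Masp2 and the convertase Furin were lower, Furin by 2.02-fold and Masp2, which was detected in no B6 mouse, by at least 2.56-fold. The kallikrein genes are near-identical copies, and their probes may share signal. Plat and Plau, which encode the plasminogen activators, targets of Serpine2, differed by -0.01 and -0.09 on the log2 scale with adjusted p of 0.98 and 0.74. Of 17 tested receptors and cofactors 3 were higher, among them the thrombin receptor F2r at 1.61-fold, and 1 was lower. Protease inhibitors of other families were called in 5 of 18 cases, 3 higher and 2 lower, led by Slpi, a secreted inhibitor of neutrophil elastase, which was detected in no NZW mouse and was at least 6.51-fold higher in B6, and Timp1, an inhibitor of metalloproteinases, at 3.62-fold (adjusted p = 0.020). Of 10 tested genes of the fibrinogen and contact systems Fga and Kng2 were higher, at 1.96-fold and 1.29-fold, and 0 were lower.

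BALB/C was then set against DBA1 and 129/svj, the sensitive strains of its table. Of 8 serpin rows tested, 2 passed in each comparison, where 5.75% of all 15818 tested rows passed against DBA1 and 4.83% against 129/svj. The same genes were called in both, Serpina6 and Serpine2, and the comparisons share the BALB/C mice. Serpina6 was higher and Serpine2 lower in BALB/C, each opposite to the direction it had in B6 against NZW. The median difference over the 8 rows was -0.48 against DBA1 and -0.29 against 129/svj, and over all tested rows 0.01 in both.

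**Figure D4:**
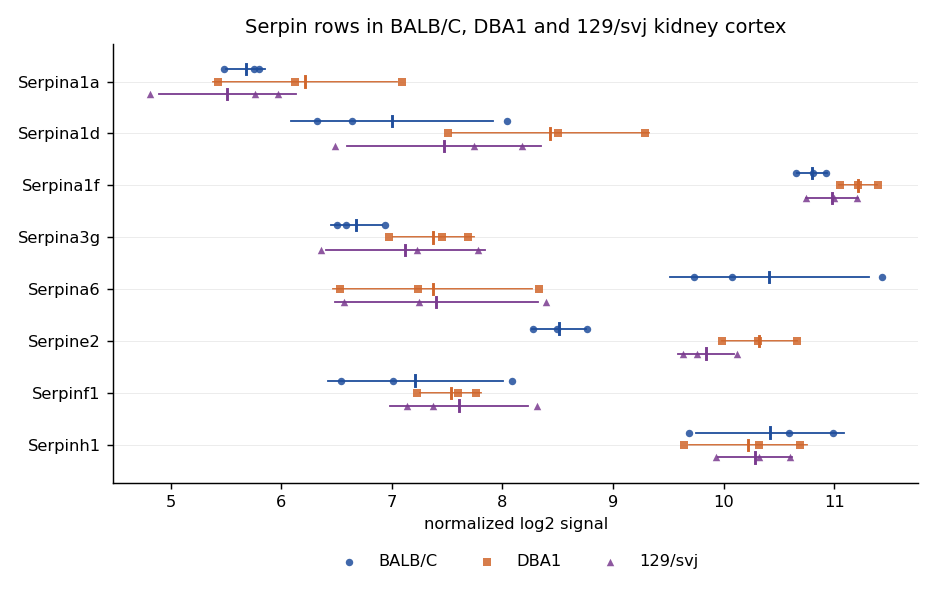
Normalized log2 signal (horizontal axis) of the 8 tested serpin rows in the 3 mice of BALB/C (blue circles), DBA1 (orange squares) and 129/svj (purple triangles), with the strain mean as a tick and 1 SD as a line. BALB/C stands apart from both other strains for Serpina6, where it is higher, and for Serpine2, where it is lower.

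Serpina6 gave 11.43, 10.08 and 9.73 in BALB/C, 8.33, 7.24 and 6.53 in DBA1, and 7.25, 8.39 and 6.57 in 129/svj. It was detected in all 9 mice, and the lowest BALB/C mouse lay above the highest mouse of the other strains. BALB/C was 8.26-fold higher than DBA1 (log2 difference 3.05, SE 0.59, adjusted p = 0.014) and 8.06-fold higher than 129/svj (log2 difference 3.01, SE 0.59, adjusted p = 0.015). The spread within each strain was wide, with an SD of 0.90 to 0.92. The call against DBA1 was lost without BALB/C mouse 1 or DBA1 mouse 2 (adjusted p up to 0.052), and that against 129/svj without BALB/C mouse 1 or 129/svj mouse 1 or 3 (adjusted p up to 0.062), with the difference between 2.50 and 3.53 in the fits that left out 1 mouse. Without background correction the differences were 2.39 and 2.36.

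Serpine2 gave 8.76, 8.28 and 8.49 in BALB/C, 9.99, 10.31 and 10.67 in DBA1, and 9.64, 9.76 and 10.12 in 129/svj. BALB/C fell by 1.81 below DBA1 (SE 0.21, adjusted p = 0.00058) and by 1.33 below 129/svj (SE 0.21, adjusted p = 0.0043), with no overlap. Both calls were kept in every fit that left out 1 mouse. DBA1 and 129/svj overlapped. Sdc4, a heparan sulfate proteoglycan of the cell surface, the kind of molecule to which Serpine2 binds, was lower in BALB/C as well, by 2.80-fold against DBA1 and 1.97-fold against 129/svj (adjusted p = 0.00038 and 0.0055). It differed by -0.04 between B6 and NZW (adjusted p = 0.85). Of the 9 tested receptors and cofactors Sdc4 alone was called in each comparison with BALB/C. Of all tested rows 5.75% were called against DBA1 and 4.83% against 129/svj.

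The alpha-1 antitrypsin copies did not separate BALB/C from the sensitive strains. Serpina1d gave 6.32, 6.64 and 8.04 in BALB/C, 7.51, 8.50 and 9.29 in DBA1, and 7.74, 6.49 and 8.18 in 129/svj. Its SD within a strain was 0.88 to 0.91. BALB/C minus DBA1 was -1.43 (95% interval -2.73 to -0.14, adjusted p = 0.22) and BALB/C minus 129/svj -0.47 (95% interval -1.76 to 0.82, adjusted p = 0.80). Serpina1a was detected in 5 of the 9 mice and ranged from 4.81 to 7.09, the highest value being that of DBA1 mouse 3, which was also the highest for Serpina1d. The summed signal of the acute phase list, led by Stat3, was 1971, 2412 and 3673 in DBA1, highest in the same mouse. It was 1781, 1718 and 1709 in BALB/C, where mouse 3, the highest for Serpina1d, was the lowest. Without Stat3 it was 640, 758 and 1463 in DBA1 and 471, 493 and 627 in BALB/C, where mouse 3 was then the highest. In 129/svj it was 1929, 1673 and 3828, and 648, 615 and 1781 without Stat3. The highest mouse there was mouse 3, as for Serpina1d. Of 5 tested genes of the acute phase list Cp alone was called against DBA1, 2.30-fold lower in BALB/C (adjusted p = 0.016). Of all tested rows 5.75% were called there. Against 129/svj 0 genes of the list were called. In B6 the list was highest in mouse 2, with and without Stat3, and the called Serpina1 probes were highest in mouse 1. The part of this response in these values was not tested. Hepatocyte markers were few in this table: of the 3 with a row Fgb and Tat were detected in no mouse, and Trf was tested and called in no comparison (unadjusted p below 0.05 in 2 of the 3).

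Of the other rows, Serpina1f gave 10.66 to 10.93 in BALB/C and 11.05 to 11.40 in DBA1, which do not overlap, with a difference of -0.42 that missed the threshold (95% interval -0.79 to -0.06, adjusted p = 0.20). Serpina3g was 6.50 to 6.94 in BALB/C and 6.97 to 7.69 in DBA1 (difference -0.70, adjusted p = 0.30), while 129/svj spanned 6.36 to 7.78. Serpinh1 overlapped in all strains, at 9.68 to 10.99 in BALB/C, 9.64 to 10.70 in DBA1 and 9.93 to 10.60 in 129/svj. Serpinf1 overlapped too, and its highest mouse was mouse 3 in BALB/C, at 8.08, and in 129/svj, at 8.31. Adipoq was highest in the same mice, at 9.06 and 8.65, and the summed signal of the 2 adipocyte genes with a row, led by Adipoq, was 73.95, 74.9 and 579 in BALB/C, 64.1, 59.6 and 75.4 in DBA1 and 153, 155 and 434 in 129/svj. The part of fat tissue in these values was not tested.

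Between the sensitive strains DBA1 and 129/svj, limma called 0 of the 8 serpin rows, where 4.49% of all tested rows were called. At an unadjusted p below 0.05 limma had 1 row, Serpine2, at 0.49 higher in DBA1 (95% interval 0.01 to 0.96), and the methods' t-test had 0, both before and after adjustment. Serpina6 differed by -0.04, with a 95% interval of -1.35 to 1.28 that leaves room for a 2-fold difference in either direction.

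Other proteins of the protease systems were read in this table beside the 5.75%, 4.83% and 4.49% of all tested rows called. Limma called 0 of 7 tested target proteases in any comparison of its strains (2 against DBA1, 1 against 129/svj and 0 between DBA1 and 129/svj at an unadjusted p below 0.05). Ren1, the gene of renin, was lower in BALB/C, by 2.26-fold against DBA1 and 1.77-fold against 129/svj (adjusted p = 0.0040 and 0.029). Itih1, a subunit of the inter-alpha inhibitors, was 2.92-fold higher in BALB/C than in 129/svj (adjusted p = 0.0023), the 1 call among 12 tested inhibitors of other families.

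**Figure D5:**
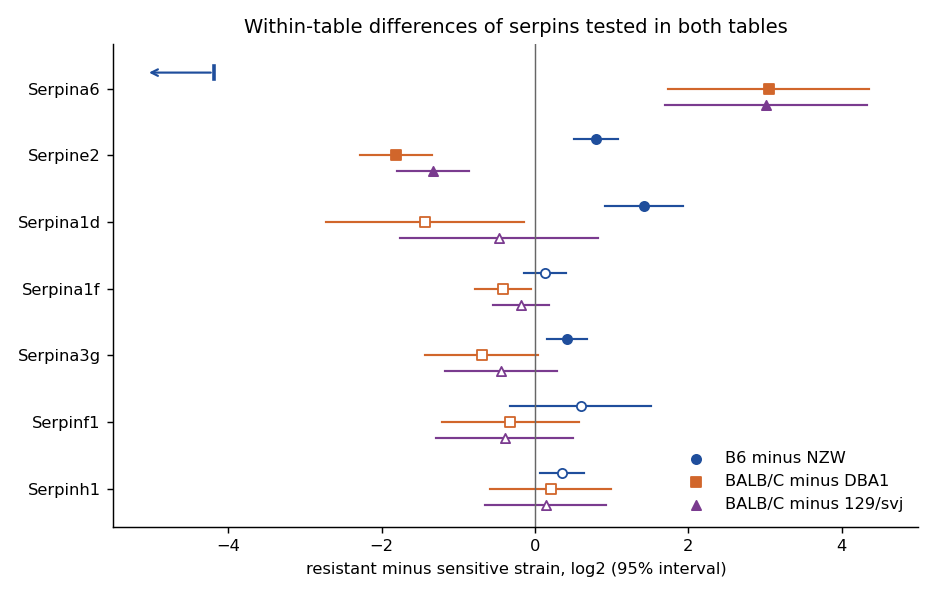
Within-table differences in log2 signal (horizontal axis), each the resistant minus the sensitive strain with its 95% interval, for the 7 serpin genes with a tested probe in each table and a row of the other table that its key matches to 1 probe. Filled symbols passed an adjusted p of 0.05 and open ones did not, and the bar with an arrow is the bound for Serpina6 in B6, with no interval and no test. Serpine2 is filled in both tables, on opposite sides of 0.

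The tables were joined over probes whose key was unique in both, and normalized together. Probe sequences were not compared, so that a matched pair may hold different probes of a gene. The joined tables held 19886 pairs, 25 of them serpins. Of 9 serpin probes tested there, 1 differed between resistant and sensitive strains when the within-table differences were averaged, where 12.0% of 6896 tested probes did. This was Serpine2 (ILMN_1246808), which fell by 0.43 in the resistant strains (SE 0.13, adjusted p = 0.035), an average of a rise in B6 and a larger fall in BALB/C. The call was lost without the filter on dim probes, without DBA1, with each table normalized on its own, with the strain as a random block and without any 1 of 7 mice, namely B6 mouse 2 or 3, BALB/C mouse 2 or 3 and each NZW mouse (adjusted p up to 0.11). No serpin probe was called in the same direction in both tables. Of the genes called between B6 and NZW, Serpina1a, Serpina1d, Serpina3g, Serpina6 and Serpine2 alone had a tested row in the other table. The rest could not be called there.

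The difference within the table of BALB/C was then tested against that of B6. It passed for 3 of the 9 serpin probes, where 10.4% of all tested probes passed. These include Serpina6, whose fitted value of 7.73 is set by the B6 signal at background and is given with no p. Serpine2 gave -2.36 (SE 0.25, adjusted p = 1.2e-05), with its rise in B6 and its fall in BALB/C. Serpina1d gave -2.30 (SE 0.70, adjusted p = 0.048), and its call was lost in 12 of the 15 fits that left out 1 mouse. For Serpina1f, Serpina3g, Serpinf1, Serpinb1a and Serpinh1 the test was not passed (adjusted p = 0.17 to 0.91). In the table of BALB/C the rows of Serpinb1a and of the dimmer Serpinf1 probe were each detected in 1 of 9 mice. Their signal there was near background, so that nothing is read from their tests.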

How the data were processed

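The authors deposited BeadStudio average signals per probe (intensity, not normalized) with a detection p-value against negative controls, in 2 tables. Total RNA had been labelled and hybridized to Illumina mouse WG-6 BeadChips (18 arrays), and a genome build is not given in the sources used here. Intensities were corrected with normexp from the deposited p-values (offset 16), quantile normalized within each table and taken to log2, and repeat arrays were averaged (limma 3.58.1, R 4.3.3). A probe detected (p up to 0.05) in 3 or more mice of its table was tested with lmFit and eBayes, with 1 coefficient per strain and Benjamini-Hochberg adjustment over all tested probes. The procedure was tested on simulated data. Rows of the second table have no symbols and were named through search keys that carry 1 symbol in the first (23100 rows). Of the 55 symbols 53 are RefSeq symbols, 1 a synonym (Serpinb6) and 1 unmatched (Serpina1). Tables were joined with Python 3.11.15 and pandas 2.3.3. List genes were read from their brightest probe. Mice of an inbred strain share a genome, so p-values measure the spread between mice.

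Every serpin probe past the threshold is named, with members detected in all mice, and of each list up to 3 genes with the largest called differences. Members, rule and lists were chosen with earlier results of these data known. Alternatives covered background, normalization, filter, variance model, replicate block, repeat arrays, the methods' t-test and each mouse left out. The number of arrays limits the precision. Some named genes are not reported here.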

Additional observations from a re-analysis of the deposited data

Results flagged for a closer look

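The difference between resistant and sensitive strains was set against that of the other table by a test of the difference itself (limma on the probes matched between the tables), which Serpine2 and Serpina1d passed on measured signal. For Serpina6 (ILMN_2692257), BALB/C minus the mean of DBA1 and 129/svj exceeded B6 minus NZW by 7.73 on the log2 scale. Serpina6 was not above background in any B6 mouse, so that this is a fitted size and not a measured one, and nothing is read from its test. For Serpine2 (ILMN_1246808) the value was -2.36, kept under each of 8 alternatives, at -2.37 to -2.08, and without any single mouse, at -2.49 to -2.24. For Serpina1d (ILMN_1225570) it was -2.30, lost without the filter on dim probes, with a trended and robust variance, and in 12 of the 15 fits that left out 1 mouse, where it ranged from -2.86 to -1.95. The probes were matched by key and not by sequence, so that these sizes may also reflect different probes of a gene.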

How the results depend on the processing

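No called serpin difference changed sign under the alternatives run, and the signs of differences that were not called were not followed. The 13 serpin calls between B6 and NZW became 4 with joint normalization, which tests 9 serpin probes, and 5 with the adjusted t-test of the methods (14 before adjustment), and they were 10 to 12 with a mouse left out. The 2 calls of BALB/C against DBA1 and the 2 against 129/svj became 0 each with the adjusted t-test, 4 and 2 before adjustment, and 1 to 2 with a mouse left out. DBA1 against 129/svj kept 0 serpin calls under each alternative run, each mouse left out included. The 1 call of resistant against sensitive strains became 2 with 75th percentile scaling, 0 without a filter, 0 with each table normalized on its own, 0 with the strain as a random block, 0 without DBA1, and 0 to 1 with a mouse left out. The 3 calls of the test of the difference between the tables, whose alternatives were chosen after seeing the data, were 2 to 4 with a mouse left out. Where no construction of the alternative shows it, the cause was not tested.

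Replicate numbers do not pair the mice: deviations of same-numbered mice from their strain means correlated at -0.07 to 0.01 in B6 and NZW and at -0.26 to 0.39 in the other table. With the replicate number as a block the serpin calls were 12 for B6 against NZW, where Serpina3g was lost, 2 against DBA1, 2 against 129/svj, 0 between DBA1 and 129/svj, 1 for resistant against sensitive strains and 3 for the difference between the tables.

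Of all tested probes, the 3161 calls between B6 and NZW became 1349 with joint normalization and 1851 and 4771 with the adjusted and unadjusted t-test. The 909, 764 and 711 calls in the other table became 335, 309 and 317 with joint normalization, 398, 319 and 217 with the adjusted t-test, 2730, 2236 and 1787 with the unadjusted one, 1718, 1276 and 1199 with repeat arrays counted as mice, and 587, 466 and 368 with rows detected in every mouse. With 1 mouse left out the 3161 calls fell to 2086 without B6 mouse 2, the 909 of BALB/C against DBA1 to 553, 495 and 583 without BALB/C mouse 1, BALB/C mouse 2 and DBA1 mouse 2, and the 764 of BALB/C against 129/svj to 484 without BALB/C mouse 2. With the filter on every mouse the 827 and 714 calls of the joined tables became 415 and 380. The gap between both arrays of a mouse was 0.03 to 0.50 on the log2 scale over the 8 serpin rows, with a median of 0.21. Signals near background compress differences.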

Other observations

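Other marker lists were read for the cells that the cortex holds. Of 11 tested tubule injury genes 3 were called higher in B6 and 3 lower, a share of 54.5% beside 18.9% of all tested probes. Lcn2 and Timp1 were 3.48-fold and 3.62-fold higher, while Havcr1, the gene of kidney injury molecule 1, was 6.81-fold lower in B6 (adjusted p = 0.013). In the table of BALB/C limma called 0 of 5 tested injury genes in any comparison (2 and 1 at an unadjusted p below 0.05 against DBA1 and 129/svj). The share of all tested rows called there was 5.75% for BALB/C against DBA1, 4.83% for BALB/C against 129/svj and 4.49% for DBA1 against 129/svj. Of 10 tested proximal tubule markers Cubn and Miox were 1.52-fold and 1.33-fold lower in B6, and 0 were higher. In the other table Slc5a2, a glucose transporter of the proximal tubule, was 2.88-fold higher in BALB/C and 2.34-fold higher in DBA1 than in 129/svj, while Slc22a6, an organic anion transporter, was 2.63-fold lower in BALB/C than in 129/svj, with 7 genes tested. Of 7 tested macrophage genes C1qb alone was called between B6 and NZW, 2.03-fold higher in B6, and 3 had an unadjusted p below 0.05. Adgre1, Cd68, Cd14, C1qa and Lyz2 had the same sign (0.16 to 0.71 on the log2 scale) and Csf1r the opposite one (-0.27). Of 4 tested against DBA1, Cd14 alone was called, 6.92-fold lower in BALB/C (adjusted p = 0.014), where 5.75% of all tested rows were called. Of 6 endothelial and 5 lymphocyte genes tested in B6 and NZW limma called 0 (1 and 0 at an unadjusted p below 0.05). Of 4 tested erythroid genes Hbb-b2 alone was called, 14.8-fold lower in B6 than in NZW (adjusted p = 2.5e-05), and Hbb-b1, Hba-a1 and Alas2 differed by 0.11, -0.13 and -0.03 on the log2 scale (adjusted p = 0.72, 0.81 and 0.97). Whether a strain variant lies under the Hbb-b2 probe was not tested.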
